A study of Mus musculus with 6 samples.

Results

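The Tribbles pseudokinases are the 3 genes *Trib1*, *Trib2* and *Trib3*, taken by symbol from the 24421 gene symbols counted in 3T3-L1 adipocytes. All 3 had counts in every library and all 3 passed the filter on low counts, which left 12766 genes for testing. The family was selected on the comparison described here, with its result already known, so its fold changes and levels are given as a description, with standard errors and without a test. 3T3-L1 is a mouse preadipocyte cell line, labelled C57BL/6 by the submitters, that becomes adipocytes in culture. Every culture received insulin, a thiazolidinedione, dexamethasone and IBMX, the last 2 being left out from day 3 of differentiation. Infection took place on day 7 at 100 pfu/cell, with a control virus for *LacZ* (AdLacZ, n = 3) or a virus for a codon-optimized murine *Lmo3* (Ad*Lmo3*, n = 3), and RNA was taken 72 h later. Both groups were therefore infected, and uninfected cells were not analysed here. *Lmo3* encodes a LIM-domain protein, and the comparison asks what its overexpression changes in mature adipocytes. The labels do not say whether the 3 libraries of a group came from separate cultures, so the spread between them may be technical.

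Tribbles proteins have a protein kinase fold with little or no catalytic activity, and they work as scaffolds. A motif in their C-terminal tail recruits the ubiquitin ligase COP1, while the pseudokinase domain or its neighbouring tail holds the protein to be degraded or restrained. TRIB1 and TRIB2 are best known for handing the transcription factor C/EBPα to COP1. TRIB3 is known for binding AKT, the kinase that carries the insulin signal, and for handing acetyl-CoA carboxylase to COP1 in fat. All 3 can bind MAP kinase kinases. The *Trib3* gene is a target of ATF4 and CHOP (gene symbol *Ddit3*), the transcription factors of the integrated stress response, which raise it during endoplasmic reticulum stress or amino acid shortage.

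The 3 genes lie on different chromosomes of GRCm38. *Trib1* occupies chr15:59648350-59657099 on the plus strand, with 3 exons in its longest transcript. *Trib2* occupies chr12:15791727-15816922 on the minus strand, also with 3 exons. *Trib3* occupies chr2:152337422-152344032 on the minus strand, with 4 exons. Their exons add up to 6248, 4335 and 2125 bp, in the same order. No stretch of 75 bp, the read length, was shared between the transcripts of any Tribbles gene and those of another gene, and no other annotated gene overlapped their exons, so the 3 counts could be told apart from each other.

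ATF4 dimerizes with C/EBP proteins on a composite element, searched here as the letters TGATGNAA on both strands of promoters that run from 250 bases before to 50 bases after the RefSeq start (GRCm38.p6). The RefSeq table held promoters of *Trib2* and *Trib3*. The letters were present in the *Trib3* promoter and not in that of *Trib2*, and 3.97% of all 32851 promoters held them. The match in *Trib3* began 15 bases into the RefSeq transcript, ahead of the first base of the GENCODE gene. Among 20 other known ATF4 target genes, 18 had a promoter in the table, and 7 of these (38.9%) held the letters. Counted by gene in the same way, 4.51% of all genes with a promoter held them. The list was made of genes with known ATF4 sites, so its higher share follows from that choice and is not a result. The windows of 30 bases below show the match in *Trib3*, in the ATF4 targets that fell with Ad*Lmo3* and carried it, and in 2 that carried it and did not pass the test. Each is written 5′ to 3′ on the strand of its gene with the matching 8 bases in capitals, and a match read from the opposite strand appears as its reverse complement.
*Trib3* (chr2:152344028-152344057, opposite strand): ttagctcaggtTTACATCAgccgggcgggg
*Nupr1* (chr7:126625562-126625591, opposite strand): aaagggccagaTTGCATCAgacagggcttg
*Chac1* (chr2:119351038-119351067, opposite strand): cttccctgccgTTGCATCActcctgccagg
*Fgf21* (chr7:45615611-45615640, opposite strand): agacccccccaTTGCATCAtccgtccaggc
*Asns* (chr6:7693214-7693243, same strand): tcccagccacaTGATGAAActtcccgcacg
*Slc7a11* (chr3:50443661-50443690, same strand): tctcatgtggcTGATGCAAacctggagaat
The match began 110 bases before the start in *Nupr1*, 193 in *Chac1*, 139 in *Fgf21*, 23 in *Asns* and 66 in *Slc7a11*, which held another match 47 bases before the start. Of the 7 ATF4 targets with these letters, 3 fell and 4 did not pass the test. A match describes the letters in the window and is not evidence of binding. Neither Tribbles promoter held the C/EBP letters TTGCGCAA (0.183% of all promoters), the cyclic AMP response element TGACGTCA (1.79%), the FOXO letters GTAAACA (3.65%) or the endoplasmic reticulum stress element (0.119%), searched as CCAAT and CCACG with 9 bases between them.

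Reads on genes summed to between 28035639 and 38332335 per library, so that a detection floor of 3 counts amounted to 0.0768 to 0.111 CPM (counts scaled to the TMM-normalized library size). These floors and the counting errors below cover counting error only. In the whole comparison, 547 of the 12766 tested genes (4.28%) passed an adjusted p of 0.05 (edgeR quasi-likelihood test, Benjamini-Hochberg), with 2.71% of all tested genes higher and 1.57% lower with Ad*Lmo3*. An unadjusted p under 0.05 was reached by 20.6% of all tested genes. The count past the adjusted threshold was 284, 238 and 77 without AdLacZ replicate 1, 2 or 3, and 501, 152 and 289 without Ad*Lmo3* replicate 1, 2 or 3. *Lmo3* had 0 counts in all 6 libraries. The virus carries a codon-optimized sequence, so this gene could not check the labels. All 16 mature adipocyte markers were detected.

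*Trib3* was the abundant member, and its mRNA was lower in each Ad*Lmo3* library than in any AdLacZ library. It stood at 298.5, 318.5 and 344.3 CPM in AdLacZ replicates 1, 2 and 3 (10622, 12444 and 11674 counts) and at 175.1, 197.8 and 137.0 CPM in Ad*Lmo3* replicates 1, 2 and 3 (6485, 7283 and 3700 counts). The groups were 101 CPM apart at their nearest libraries. The AdLacZ mean was 320 ± 22.9 CPM, and the Ad*Lmo3* mean of 170 ± 30.7 CPM (SD, n = 3) was 1.89-fold lower. The log2 fold change was -0.91 with a standard error of 0.13. Replicates varied by 7.16% of their mean in AdLacZ and 18.1% in Ad*Lmo3*, whereas counting error alone was between 0.896% and 1.64% in single libraries, so counting error was a small part of the spread of *Trib3*. Ad*Lmo3* replicate 3 was the lowest library. Without it the log2 fold change was -0.78, and without Ad*Lmo3* replicate 2, the highest of its group, it was -1.04. In bulk RNA, fewer cells that express a gene and less of its RNA per cell cannot be told apart.

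*Trib1* lay far below *Trib3* in CPM, and its groups overlapped. It measured 11.4, 15.9 and 12.1 CPM in AdLacZ replicates 1, 2 and 3, from 405, 621 and 410 counts. In Ad*Lmo3* replicates 1, 2 and 3 it measured 23.6, 15.8 and 18.8 CPM, from 874, 581 and 507 counts. The overlap rested on AdLacZ replicate 2 and Ad*Lmo3* replicate 2, which differed by 0.115 CPM. The means were 13.1 ± 2.43 CPM and 19.4 ± 3.94 CPM (SD, n = 3), with a log2 fold change of 0.56 and a standard error of 0.18. Replicates varied by 18.5% and 20.3%, several times the counting error of 3.38% to 4.97%. Ad*Lmo3* replicate 1 held the highest value, and without it the log2 fold change was 0.40.

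*Trib2* was the least abundant member in CPM, with values that separated the groups by a small margin. Its AdLacZ libraries held 6.94, 7.22 and 6.43 CPM (247, 282 and 218 counts), and its Ad*Lmo3* libraries 8.53, 9.64 and 10.3 CPM (316, 355 and 277 counts). The nearest libraries of the groups were 1.31 CPM apart. Means were 6.86 ± 0.400 CPM and 9.48 ± 0.874 CPM (SD, n = 3), with a log2 fold change of 0.46 and a standard error of 0.12. Replicates varied by 5.83% in AdLacZ and 9.22% in Ad*Lmo3*, beside a counting error of 5.31% to 6.77% in single libraries. *Trib2* and *Trib3* were thus the 2 of 3 members with groups that did not overlap, beside 26.5% of all tested genes.

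**Figure D1:**
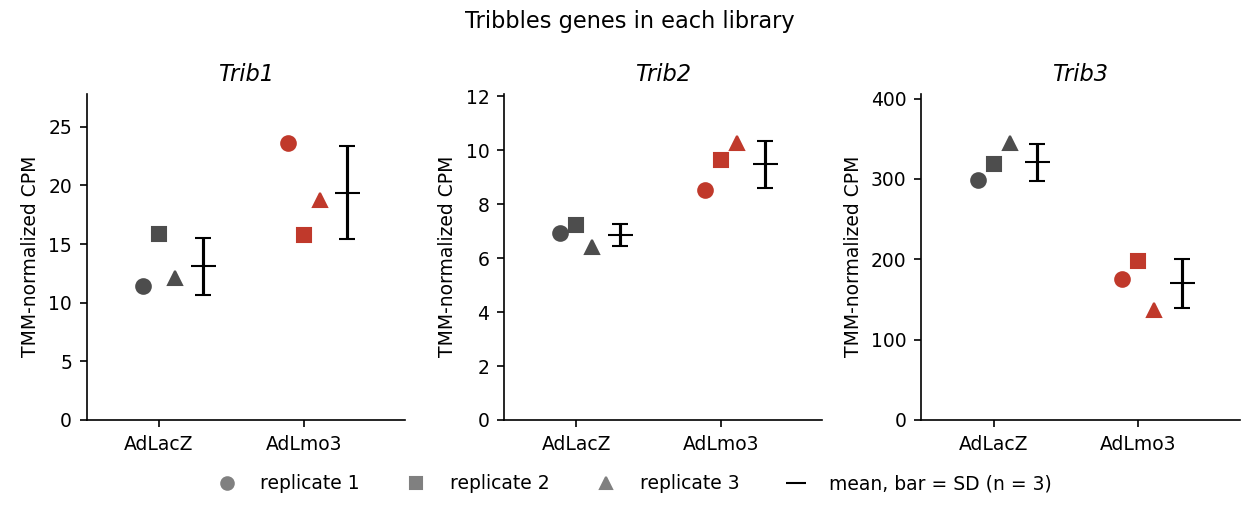
TMM-normalized CPM of *Trib1*, *Trib2* and *Trib3* (linear axes from 0) in the 3 AdLacZ and 3 Ad*Lmo3* libraries, with 1 point per library, its shape giving the replicate number, and the mean with its SD beside the points. The groups are apart for *Trib3* (lowest AdLacZ value 298.5, highest Ad*Lmo3* value 197.8 CPM) and for *Trib2*, and overlap for *Trib1*.

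Under the 12 alternatives tried, the log2 fold change ranged from -1.04 to -0.78 for *Trib3*, from 0.40 to 0.72 for *Trib1* and from 0.40 to 0.54 for *Trib2*. Each gene thus kept its direction under all 12. The alternatives reuse the same libraries. For *Trib2* and *Trib3*, whose groups did not overlap, leaving out a library could not reverse the direction.

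**Figure D2:**
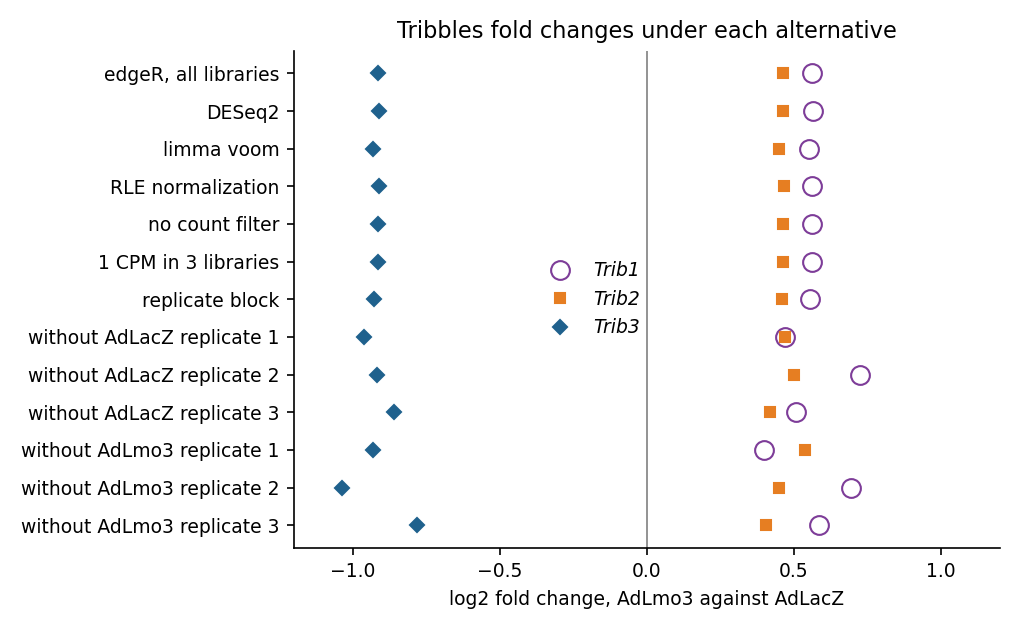
Log2 fold change of the 3 Tribbles genes (x axis, Ad*Lmo3* against AdLacZ) in the fit with all libraries (top line) and under 12 alternatives of tool, scaling, count filter, replicate block and omitted library. *Trib3* stays between -1.04 and -0.78, and *Trib1* spans the widest range, from 0.40 to 0.72.

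To compare levels between the genes, CPM were divided by the length of each gene's exons. On this scale *Trib3* was highest, *Trib1* next and *Trib2* lowest in all 6 libraries. *Trib3* reached 151 ± 10.8 CPM per kb in AdLacZ and 80.0 ± 14.5 in Ad*Lmo3* (SD, n = 3). *Trib1* reached 2.10 ± 0.388 and 3.10 ± 0.631 CPM per kb, and *Trib2* 1.58 ± 0.0923 and 2.19 ± 0.202. *Trib3* was therefore far from its neighbour in the order, by 58.9 to 83.7 times the *Trib1* level in AdLacZ libraries and 21.5 to 36.9 times in Ad*Lmo3* libraries. *Trib1* and *Trib2* were close. In AdLacZ the lowest *Trib1* value (1.82 CPM per kb) was just above the highest *Trib2* value (1.67), and in Ad*Lmo3* the corresponding values were 2.53 and 2.37, gaps smaller than the SD of *Trib1*. The level of *Trib1* also depends on which exons are counted in its length, since its longest transcript has 4330 bp and its exons together 6248 bp.

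The composition of the family followed from these levels. *Trib3* made up 97.6% ± 0.333 of the summed Tribbles level per kb in AdLacZ and 93.6% ± 1.42 in Ad*Lmo3* (SD, n = 3). The share of *Trib1* went from 1.36% ± 0.255 to 3.72% ± 0.988, and that of *Trib2* from 1.03% ± 0.117 to 2.63% ± 0.655. *Trib3* remained the main Tribbles mRNA in every Ad*Lmo3* library, where its lowest share was 92.3%.

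**Figure D3:**
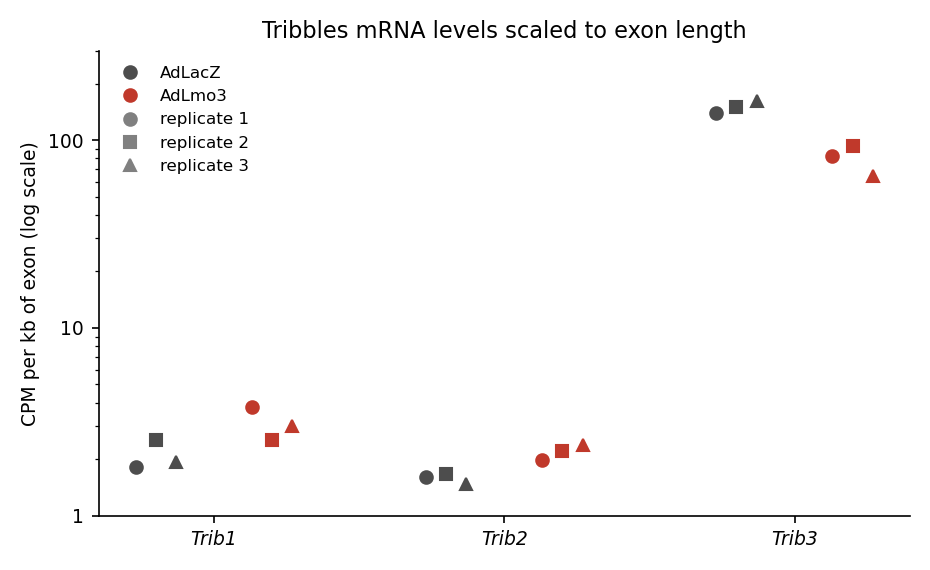
Levels of the 3 Tribbles genes as CPM per kb of exon on a log axis, with 1 point per library, grey for AdLacZ and red for Ad*Lmo3*, and the shape giving the replicate number. *Trib3* lies between 64.5 and 162 CPM per kb, and all values of *Trib1* and *Trib2* lie at or below 3.78.

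The likeness of 2 genes was measured as the root mean square difference of their log2 CPM over the 6 libraries, each gene centred on its own mean, so that 0 means the same profile. *Trib1* and *Trib2* differed from each other by 0.26, and *Trib3* differed from *Trib1* by 0.80 and from *Trib2* by 0.73. The 3 tested genes most like *Trib3* were *2310040G24Rik* (0.06), *Aipl1* (0.06) and *Pde1b* (0.08), the last encoding a calmodulin-dependent phosphodiesterase. Those most like *Trib1* were *Dusp4* (0.08), which encodes a phosphatase of MAP kinases, *Ccrn4l* (0.10), which encodes nocturnin, and *1700029I15Rik* (0.11). Those most like *Trib2* were *Prickle4* (0.02), *Iqck* (0.02) and *Fads2* (0.04), which encodes the delta-6 desaturase of polyunsaturated fatty acids. *Pde1b* averaged 10.7 CPM over the 6 libraries, against 1.498 CPM for *2310040G24Rik*, 0.581 CPM for *Aipl1*, 1.10 CPM for *1700029I15Rik* and 1.45 CPM for *Iqck*, whose profiles therefore rest on few reads.

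Of the genes around the family, 110 in 10 pathway lists were tested (a gene held by 2 lists counted once). Of these, 11 rose and 7 fell with Ad*Lmo3*, together 16.4% against the 4.28% of all tested genes. The 18 became 29 with DESeq2, 9 without AdLacZ replicate 2, 4 without AdLacZ replicate 3 and 11 without Ad*Lmo3* replicate 2. The lists were chosen with earlier results of these data known. Adjusted p-values below come from edgeR's quasi-likelihood test over all tested genes.

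The pathway that raises *Trib3* comes first. The ATF4 and CHOP branch holds the eIF2α kinases, the transcription factors below them and regulatory subunits of the phosphatase that acts on eIF2α. In it, 1 of 10 genes fell and none rose, against 1.57% of all tested genes that fell. The median log2 fold change was -0.27 against 0.00 for all tested genes. The gene that fell was *Ddit3*, which encodes CHOP. It stood at 226, 297 and 265 CPM in AdLacZ replicates 1, 2 and 3 and at 180, 156 and 105 CPM in the Ad*Lmo3* replicates. Its groups did not overlap, and the same library, Ad*Lmo3* replicate 3, was lowest for *Ddit3*, for *Atf4* and for *Trib3*. The log2 fold change of *Ddit3* was -0.84 ± 0.19 (SE, adjusted p = 0.0471). *Atf4* itself went from 389 ± 39.8 to 306 ± 41.5 CPM (SD, n = 3), a log2 fold change of -0.34 that did not pass the test (adjusted p = 0.140). The call of *Ddit3* held in 7 of 12 alternatives. It was lost with the replicate block and without any one of the AdLacZ replicates 1, 2 and 3 or Ad*Lmo3* replicate 2, where none of the 10 genes passed (highest adjusted p of *Ddit3* 0.166), and DESeq2 called 3 genes of the list.

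Among 20 ATF4 target genes other than *Trib3*, 6 fell and none rose, against 1.57% of all tested genes that fell. The median log2 fold change was -0.23, and 16 of the 20 had a value below 0, beside 6329 of all 12766 tested genes. The largest fall among those that passed was *Fgf21*, a hormone gene at low level here, which went from 1.604 ± 0.120 to 0.364 ± 0.128 CPM (SD, n = 3, log2 fold change -2.15 ± 0.30 SE, adjusted p = 0.0102). *Nupr1*, which encodes a stress-induced nuclear protein, went from 168 ± 13.4 to 96.1 ± 7.44 CPM (log2 fold change -0.80 ± 0.09 SE, adjusted p = 0.00352). *Chac1*, whose product degrades glutathione, changed by -0.56 (adjusted p = 0.0308). *Aldh18a1*, an enzyme of proline synthesis, changed by -0.52 (adjusted p = 0.0405). The other two were *Slc3a2* (-0.51, adjusted p = 0.0331) and *Slc7a5* (-0.44, adjusted p = 0.0179), which encode the subunits of a large neutral amino acid transporter. *Asns* and *Slc7a11*, whose promoter windows are printed above, had log2 fold changes of -0.05 and 0.64 and did not pass (adjusted p = 0.772 and 0.291). The count of 6 became 10 with DESeq2, and it was 4 without AdLacZ replicate 1, 2 without AdLacZ replicate 2, 1 without AdLacZ replicate 3, 2 without Ad*Lmo3* replicate 2 and 3 without Ad*Lmo3* replicate 3. *Nupr1* passed in all 12 alternatives.

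**Figure D4:**
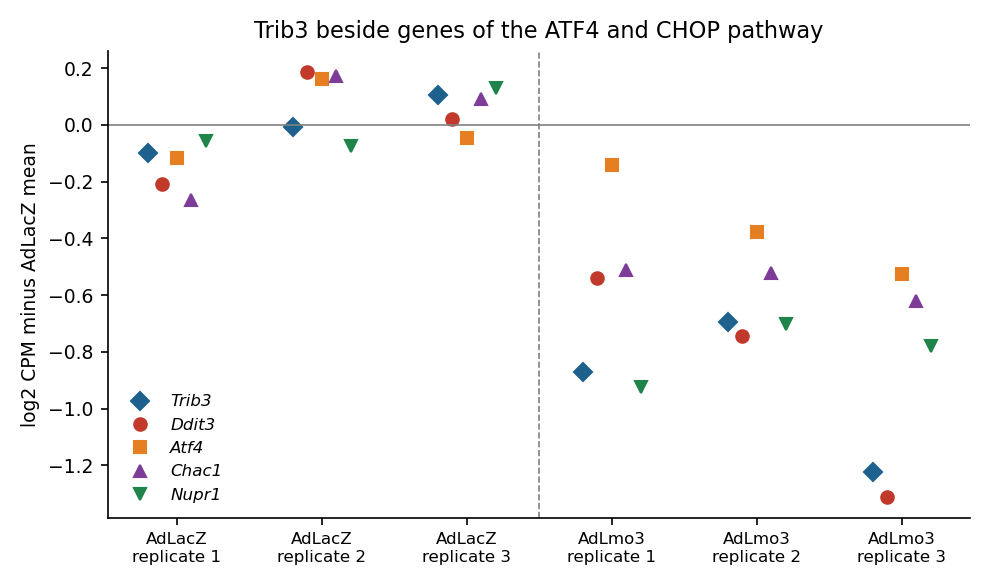
Log2 CPM of *Trib3* and of *Ddit3*, *Atf4*, *Chac1* and *Nupr1* in each library, each gene set to a mean of 0 over its AdLacZ libraries, with 1 symbol per gene and the dashed line between the groups. All 5 genes lie below 0 in the Ad*Lmo3* libraries. *Trib3*, *Ddit3*, *Atf4* and *Chac1* are at their lowest in Ad*Lmo3* replicate 3, and *Nupr1* in Ad*Lmo3* replicate 1. The genes beside *Trib3* are a selection with lower values in Ad*Lmo3*. In the full lists, 4 of 20 ATF4 target genes and 2 of 10 genes of the ATF4 and CHOP branch had a log2 fold change above 0.

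The AKT arm, the insulin pathway that TRIB3 binds, showed no gene past the threshold among 18 tested (edgeR), with 6 at an unadjusted p under 0.05, beside 20.6% of all tested genes. DESeq2 called 2 and limma voom 1. The list spanned log2 fold changes from -0.21 to 0.33 with a median of 0.07. *Akt2*, the AKT isoform of insulin-stimulated glucose uptake, was at the upper end, with 233, 205 and 225 CPM in the AdLacZ replicates and 269, 272 and 293 CPM in the Ad*Lmo3* replicates. Its groups did not overlap, and its log2 fold change of 0.33 ± 0.08 (SE) had an adjusted p of 0.0508, with 5 of 12 alternatives calling it and an adjusted p of up to 0.166 in the others. *Akt1* had a log2 fold change of -0.08 (adjusted p = 0.674). These are mRNA levels and say nothing about the phosphorylation of AKT.

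FOXO factors are held out of the nucleus by active AKT, and their target genes rise when AKT is low. Of 15 such genes, *Pnpla2*, which encodes adipose triglyceride lipase, rose and none fell, beside 2.71% of all tested genes that rose. *Pnpla2* went from 940 ± 38.8 to 1394 ± 73.3 CPM (SD, n = 3, log2 fold change 0.57 ± 0.08 SE, adjusted p = 0.00869). It is also a gene of mature adipocytes and belongs to that marker list too. Without AdLacZ replicate 3 it did not pass (adjusted p = 0.0638), and without Ad*Lmo3* replicate 1 the list had 2 genes past the threshold. The list median of 0.09 lay near that of all tested genes, while single genes ranged from -0.30 to 0.57. Of the 15, 7 had an unadjusted p under 0.05 in edgeR, beside 20.6% of all tested genes.

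The COP1 ligase with its CUL4 partners is the machinery to which Tribbles proteins bring their cargo. None of 8 genes passed in edgeR, DESeq2 or limma voom. An unadjusted p under 0.05 was reached by 3 in edgeR, beside 20.6% of all tested genes. The groups did not overlap for 5 of the 8, each lower with Ad*Lmo3*, beside 26.5% of all tested genes without overlap. *Cop1* (listed as *Rfwd2*) went from 37.2 ± 1.32 to 32.5 ± 1.46 CPM (SD, n = 3), with groups that did not overlap and a log2 fold change of -0.20 that did not pass (adjusted p = 0.146). *Stk40*, a Tribbles-related pseudokinase that also binds COP1, had a log2 fold change of 0.03 (adjusted p = 0.928).

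Among the 4 genes of proteins known to be passed to COP1, *Cebpa* rose and none fell, beside 2.71% of all tested genes that rose. *Cebpa* had 232, 207 and 230 CPM in the AdLacZ replicates and 308, 360 and 337 CPM in the Ad*Lmo3* replicates. Every Ad*Lmo3* library was above every AdLacZ library. The log2 fold change was 0.59 ± 0.08 (SE, adjusted p = 0.0111), and 11 of 12 alternatives kept the call. The exception was without AdLacZ replicate 3 (adjusted p = 0.0601). *Acaca*, which encodes the acetyl-CoA carboxylase of fatty acid synthesis, went from 167 ± 2.497 to 225 ± 46.0 CPM (SD, n = 3). Its log2 fold change of 0.43 did not pass in edgeR (adjusted p = 0.112) but passed in DESeq2 (adjusted p = 0.0135). The Ad*Lmo3* spread came from replicate 3 at 278 CPM against 196 and 200 in the other two.

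In the C/EBP family, 1 of 5 tested genes rose (*Cebpa*) and 1 fell (*Ddit3*, itself a C/EBP-type factor). Of all tested genes, 2.71% rose and 1.57% fell. *Cebpb* and *Cebpd*, which act early in adipocyte differentiation, had log2 fold changes of 0.21 and 0.05 (adjusted p = 0.335 and 0.898). *Cebpe*, the remaining gene of the list, was not tested. Neither call was made without AdLacZ replicate 3. Without AdLacZ replicate 1 or 2 or Ad*Lmo3* replicate 2, 1 call remained.

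C/EBP target genes of fat cells rose in 7 of 10 cases and fell in none, against 2.71% of all tested genes that rose. Their median log2 fold change was 0.72. The largest rises were *Retn*, which encodes the adipokine resistin (1.44, adjusted p = 0.00243), and *Pck1*, an enzyme of glyceroneogenesis (1.19, adjusted p = 0.00352). *Scd1*, which encodes a fatty acid desaturase, changed by 1.09 (adjusted p = 0.00352) and *Adipoq*, which encodes adiponectin, by 1.05 (adjusted p = 0.00724). The authors count *Adipoq* among the targets of the nuclear receptor PPARγ, so the list is not particular to C/EBP proteins. Which factor accounts for these values was not tested. Of these 10 genes, 7 are also in the list of mature adipocyte markers, in which 10 of 16 rose, so the lists are not separate observations. The count of 7 was 3 and that of 10 was 2 without AdLacZ replicate 3, and the marker count was 6 without AdLacZ replicate 2 or Ad*Lmo3* replicate 2.

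The MAP kinase kinases and kinases that Tribbles proteins bind had no gene past the threshold among 9 in edgeR, DESeq2 or limma voom. Of the 9, 1 had an unadjusted p under 0.05 in edgeR, beside 20.6% of all tested genes. *Map2k1*, which encodes MEK1, had a log2 fold change of 0.02 (adjusted p = 0.928) and *Map2k7* one of 0.03 (adjusted p = 0.869). Of 16 genes whose mRNA follows ERK activity, 2 rose and none fell, against 2.71% of all tested genes that rose. A value above 0 was found in 14 of them, beside 6437 of all 12766 tested genes. An unadjusted p under 0.05 was reached by 8 of the 16 in edgeR, beside 20.6% of all tested genes. *Spry4*, an inhibitor of receptor tyrosine kinase signalling, rose from 40.2 ± 1.00 to 66.7 ± 10.4 CPM (SD, n = 3, log2 fold change 0.73 ± 0.11 SE, adjusted p = 0.0129). *Dusp4*, also the gene most like *Trib1*, rose from 30.5 ± 4.41 to 48.8 ± 8.82 CPM (log2 fold change 0.68 ± 0.14 SE, adjusted p = 0.0417). Neither gene passed without AdLacZ replicate 2 or without AdLacZ replicate 3. *Dusp4* passed in 5 of 12 alternatives, and the list kept 1 call without Ad*Lmo3* replicate 1 or 3.

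**Figure D5:**
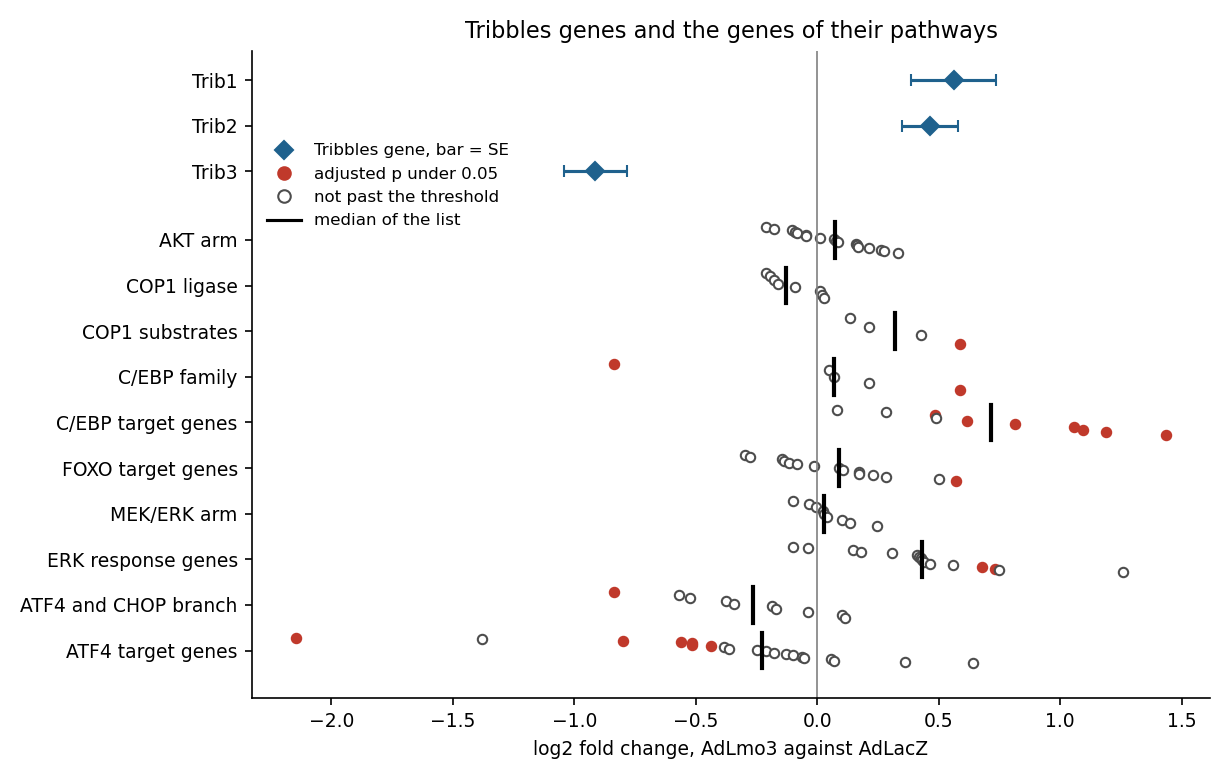
Log2 fold change (Ad*Lmo3* against AdLacZ) of the 3 Tribbles genes with their SE and of each tested gene in the 10 pathway lists, filled in red where the adjusted p was under 0.05, with the median of each list as a vertical bar. The red points lie to the left of 0 in the ATF4 lists, to the right in the C/EBP target list, and are absent from the AKT arm, the COP1 ligase and the MEK/ERK arm.

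Markers of other cell states moved as follows beside these values. The summed level of the 16 mature adipocyte markers was 25816 to 28925 CPM in AdLacZ and 34590 to 41945 CPM in Ad*Lmo3*, with no marker at 0. The 12 preadipocyte and fibroblast markers summed to 17668 to 22391 CPM and 17215 to 25823 CPM, and none passed the test in edgeR, DESeq2 or limma voom, nor an unadjusted p under 0.05 in edgeR. The 12 interferon response genes summed to 1458 to 1893 CPM in AdLacZ but to 734, 1621 and 3836 CPM in Ad*Lmo3* replicates 1, 2 and 3. None of them passed in edgeR, DESeq2 or limma voom, nor an unadjusted p under 0.05 in edgeR, and 1 passed without Ad*Lmo3* replicate 3. Ad*Lmo3* replicate 3, the library with the lowest *Trib3* level, held the highest interferon sum, the highest adipocyte marker sum and the lowest preadipocyte marker sum of all 6 libraries. Single preadipocyte and fibroblast markers did not all follow their sum, of which *Col3a1* was the largest part (9608 CPM in this library). *Col3a1*, *Dlk1* and *Postn* were at their lowest there, whereas *Ly6a* was at its highest (245 CPM). The part of adipocyte maturity and of the interferon response in the Tribbles values was not tested.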

How the data were processed

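RNA of 3T3-L1 adipocytes carrying AdLacZ or Ad*Lmo3* (3 libraries each) was sequenced in single reads of 75 bp and, per the submitters' processing notes, mapped to mm10 with STAR 2.5.0b. The authors deposited raw counts per gene symbol, without normalization. The counting program, strand setting and annotation are not given in the sources used here. Reads given to no gene (7.15% to 8.94%) or to several (0.476% to 0.543%) were left out.

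Genes were filtered (filterByExpr), scaled (TMM) and tested by quasi-likelihood, without a replicate block, in edgeR 4.0.16 under R 4.3.3, with Benjamini-Hochberg adjustment over 12766 genes. Each standard error of a log2 fold change was derived from that test, as its absolute value divided by the square root of the F statistic. Alternatives were DESeq2 1.42.0, limma voom 3.58.1, RLE scaling, other count filters, the replicate block and leaving out each library. Lengths and positions came from GENCODE on GRCm38, and promoters from RefSeq. Protein sequences were not analysed here.

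The members and gene lists were chosen with earlier results of these data known. Genes named were the Tribbles genes, *Lmo3*, fixed anchors (*Akt1*, *Akt2*, *Cop1*, *Stk40*, *Acaca*, *Cebpa*, *Cebpb*, *Cebpd*, *Ddit3*, *Atf4*, *Map2k1* and *Map2k7*), up to 4 passing genes with the largest change per list, and the 3 genes most like each member. *Slc3a2*, *Slc7a5*, *Asns*, *Slc7a11*, *Col3a1*, *Dlk1*, *Postn* and *Ly6a* were named after their values were seen. One further anchor gene is not reported here.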

Additional observations from a re-analysis of the deposited data

How the results depend on the processing

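The direction of *Trib1*, *Trib2* and *Trib3* was kept in all 12 alternatives, which reuse the same libraries and are not independent evidence. The number of genes past the threshold was 547, against 1110 with DESeq2 and 77 to 501 when 1 library was left out (77 without AdLacZ replicate 3). The pathway lists held 18 such genes, against 29 with DESeq2 and 4 to 19 when 1 library was left out. The mean level of *Trib1* over the 6 libraries was 3.75 CPM per kb of its longest transcript and 2.60 CPM per kb of all its exons. With the replicate number as a replicate block, 498 genes passed, 400 of them shared with the fit without it. Same-numbered libraries of the groups deviated together by correlations of 0.03, 0.18 and 0.18, against -0.26 to 0.15 for libraries of unlike number. Whether same-numbered libraries shared a batch was not tested. The block left 16 pathway genes, and *Ddit3* and *Dusp4* did not pass with it, and no other call of a gene in the pathway lists changed. Where a library is left out, 1 group has only 2 libraries. The cause of the differing counts was not tested. Depth limits *Trib2* most, whose 218 to 355 counts per library carry the largest counting error of the 3 genes.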

Other observations

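*Trib3* was among the most abundant genes with a value this far below 0. Of the 682 tested genes with a mean CPM above that of *Trib3*, 3 had a lower log2 fold change, and they are named here after their values were seen. All 3 encode chaperones of the endoplasmic reticulum lumen. *Calr*, which encodes the calcium-binding lectin calreticulin, went from 2762 ± 152 to 1212 ± 152 CPM (SD, n = 3, log2 fold change -1.19 ± 0.11 SE, adjusted p = 0.00352 by edgeR). *Hspa5*, which encodes BiP, went from 4276 ± 682 to 1912 ± 407 CPM (log2 fold change -1.16 ± 0.17 SE, adjusted p = 0.0123 by edgeR). *Hsp90b1*, which encodes GRP94, went from 2292 ± 260 to 1074 ± 96.5 CPM (log2 fold change -1.09 ± 0.11 SE, adjusted p = 0.00352 by edgeR). The level of *Trib3* itself ranked 683 of the 12766 tested genes, and 111 tested genes had a lower log2 fold change.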
